A study of Mus musculus with 6 samples.

Results

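The forkhead transcription factors were followed by every probe set whose single annotated gene symbol is Fox, a subclass letter and a number, which gave 82 of 45101 probe sets on the array, for 37 of 18194 named genes. Of these, 21 genes had more than 1 probe set, and probe sets of 1 gene share their target and are not replicates. The choice used gene names only and no measured value.

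Forkhead factors bind DNA through the winged-helix forkhead domain and are grouped by letter. In the early embryo, Foxh1 carries the Nodal signal to its target genes together with Smad proteins, Foxf1 acts in lateral and extraembryonic mesoderm that forms vessels, and Foxc1 and Foxc2 act in paraxial mesoderm and in endothelium, where they can work with Ets factors on composite FOX:ETS sites. FoxO factors are held out of the nucleus by PI3K and Akt signalling, Foxa2 acts in node and endoderm, and FoxP factors are mostly repressors in lung, heart and lymphocytes.

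The RNA came from mouse embryonic stem (ES) cells grown as embryoid bodies, aggregates in which germ layers form, and sorted on day 4 for Flk1 (gene Kdr), a receptor of early mesoderm and of blood and vessel precursors. The series asks which genes depend on Scl (gene Tal1), a basic helix-loop-helix factor that blood formation requires. It holds 6 Affymetrix arrays in 3 groups of 2. SclKO cells came from an ES line lacking Scl that was derived from the J1 line of strain 129S4/SvJae, and the sorting protocol collected them on Flk1 alone. WT Scl+ and WT Scl- cells came from 1 reporter line derived from R1, of strain (129/Sv x 129/Sv-CP)F1, in which human CD4 knocked into the Scl locus reports Scl. Both were Flk1+, and WT Scl+ cells carried human CD4 while WT Scl- cells did not. All groups share the medium, the culture time and the Flk1 gate. In both comparisons with SclKO, the knockout, the ES line and the gate cannot be told apart. The labels do not say whether the 2 arrays of a group came from separate cultures, and the p-values cover no more than the spread between these arrays, which may be technical.

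Values are natural logs of the deposited values. The highest deposited value was 2822995, far above the ceiling of a 16-bit scanner, so the values are not linear intensities, while their natural logs run from 1.18 to 14.85, the range of RMA log2 values. A log unit is therefore read as a 2-fold change, a reading taken from the values and stated by no label. A probe set was dim on an array when it lay under that array's 40th percentile, between 4.54 and 4.59 log units, and it was tested when it exceeded that limit on at least 2 arrays. The targeted gene, Tal1, read 5.71 and 6.14 in SclKO, 8.65 and 8.78 in WT Scl+, and 6.52 and 7.97 in WT Scl- cells. It was lowest in SclKO and highest in WT Scl+ without overlap. Kdr, the sort receptor, lay between 10.83 and 11.35 on all 6 arrays. WT Scl+ replicate 2 stood apart, at -78.4 on the first principal component (53.2% of the variance), against -11.5 to 38.1 for the other 5 arrays. It correlated with its partner array at 0.964, where the partners in SclKO and WT Scl- reached 0.986 and 0.982, and values without it are given below for the forkhead probe sets and lists whose counts or sizes it moves most. With 1 array left out, a group of 1 array takes its spread from the other groups, so such p-values assume that it varies as they do.

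Of the 82 forkhead probe sets, 46 exceeded the limit on all 6 arrays, 12 on 2 to 5 arrays, 2 on 1 array, and 22 were dim on all 6. The test therefore covered 58 probe sets of 27 genes. In 9 genes every probe set was dim on every array. These were Foxa1, a pioneer factor of endoderm, Foxb1 of the neural tube, Foxd1 of kidney stroma, Foxd3, which acts in pluripotent cells and neural crest, Foxd4, Foxf2, the paralog of Foxf1, Foxi1, an otic and epithelial factor, Foxj1 of motile cilia, and Foxp2, a neural factor with 6 probe sets here. Foxc1 was not tested either. Its brighter probe set, 1419486_at, read 4.20 and 4.52 in SclKO, 3.46 and 3.36 in WT Scl+, and 4.81 and 4.32 in WT Scl- cells, exceeding the limit on 1 array. Between 30 and 32 forkhead probe sets were dim on at least 1 array of a group, with 30 in SclKO, 31 in WT Scl+ and 32 in WT Scl-. A dim value is not a zero: it says that the probe set did not exceed most of the array.

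**Figure D1:**
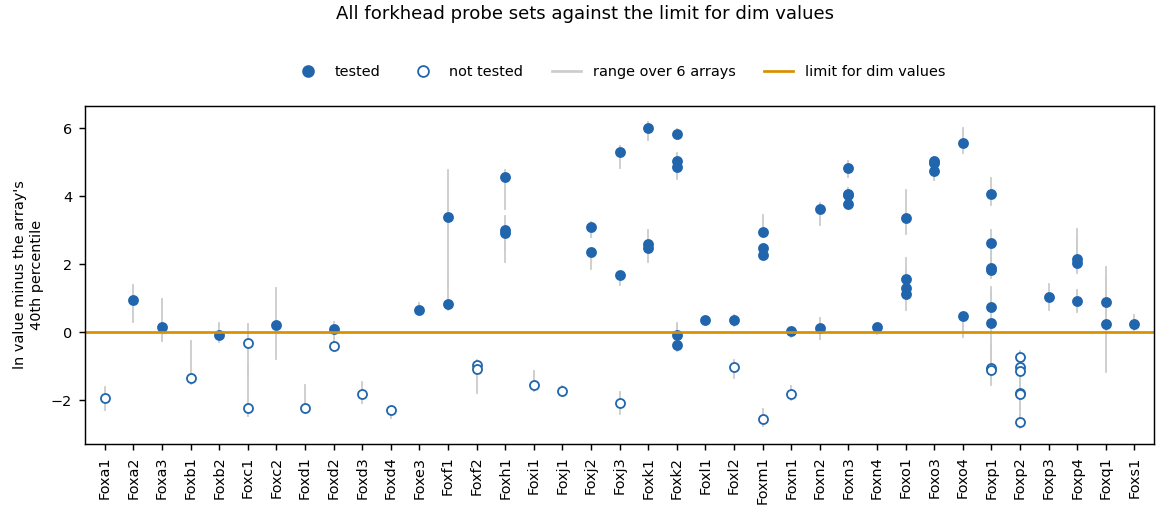
Natural log of the deposited value minus the array's 40th percentile (the limit, drawn at zero), by gene; each point is the median of a probe set over 6 arrays, the line its range, filled where the probe set was tested. Of 82 probe sets, 46 lay wholly above the limit and 22 wholly below it.

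Promoter windows of 3 genes are shown, chosen after their values were seen. Foxo1 was the FoxO gene with a difference between the WT groups, and every tested probe set of Foxp4 and Foxp1 had a higher mean in SclKO than in both WT groups. The windows are of RefSeq promoters. Each window holds the 250 bases before an annotated start, 5′ to 3′ on the gene's strand, from RefSeq on GRCm38.p6. All 37 gene symbols matched the RefSeq gene table, and 24 of the 37 genes had a promoter entry (29 entries). Short words were searched on both strands, and matches stand in capitals. The E-box words, of the kind basic helix-loop-helix factors bind, were CAGATG, found in 14.4% of all 32851 promoter windows of this length, and CAGCTG, found in 13.0%. The GATA word AGATAA was found in 9.99%, the forkhead word TGTTTAC in 3.17%, the forkhead word TGTTTGC in 4.30% and the Ets word CAGGAAG in 10.8%. None of these words contains another.
Foxo1, chr3:52268087-52268336, plus strand: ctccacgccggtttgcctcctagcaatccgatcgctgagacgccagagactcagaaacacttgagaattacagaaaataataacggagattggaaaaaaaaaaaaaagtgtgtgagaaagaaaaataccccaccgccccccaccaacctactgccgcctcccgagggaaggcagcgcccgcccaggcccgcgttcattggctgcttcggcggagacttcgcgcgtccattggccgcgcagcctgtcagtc
Foxp4, chr17:47924633-47924882, minus strand: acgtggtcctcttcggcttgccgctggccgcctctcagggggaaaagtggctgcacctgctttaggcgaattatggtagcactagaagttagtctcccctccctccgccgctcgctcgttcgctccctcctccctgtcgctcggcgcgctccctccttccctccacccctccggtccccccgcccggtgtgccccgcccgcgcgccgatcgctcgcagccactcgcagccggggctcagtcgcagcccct
Foxp1 start A, chr6:99028299-99028548, minus strand: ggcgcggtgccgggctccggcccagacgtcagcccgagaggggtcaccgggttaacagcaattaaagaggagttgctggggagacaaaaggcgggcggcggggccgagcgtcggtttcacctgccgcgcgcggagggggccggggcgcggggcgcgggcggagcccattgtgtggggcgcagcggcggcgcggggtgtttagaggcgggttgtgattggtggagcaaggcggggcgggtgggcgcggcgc
Foxp1 start B, chr6:99266516-99266765, minus strand: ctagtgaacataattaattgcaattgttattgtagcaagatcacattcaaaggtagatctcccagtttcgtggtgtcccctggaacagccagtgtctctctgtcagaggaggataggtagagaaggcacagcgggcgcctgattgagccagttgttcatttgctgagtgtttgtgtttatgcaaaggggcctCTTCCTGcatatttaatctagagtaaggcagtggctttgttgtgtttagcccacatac
Foxp1 start C, chr6:99520994-99521243, minus strand: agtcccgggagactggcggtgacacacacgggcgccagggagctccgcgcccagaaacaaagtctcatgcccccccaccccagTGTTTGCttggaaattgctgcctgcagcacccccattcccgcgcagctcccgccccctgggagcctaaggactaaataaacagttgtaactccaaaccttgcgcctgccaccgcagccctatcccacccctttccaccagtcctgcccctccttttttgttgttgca
Foxp1 start B held the Ets word 58 bases before the start, read on the other strand as CTTCCTG, and start C held TGTTTGC 167 bases before the start. The windows of Foxo1, Foxp4 and Foxp1 start A held none of the 6 words. G and C made up 56.0% of the Foxo1 window, 69.6% of the Foxp4 window, and 74.0%, 45.2% and 60.8% of Foxp1 starts A, B and C, against a median of 52.4% over all windows. Which of the 3 Foxp1 starts a probe set reads was not determined, and a match is a description of letters only.

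Across the 58 tested probe sets, no forkhead difference passed an adjusted p of 0.05 with limma in any of the 3 comparisons. In WT Scl+ against WT Scl-, 0 of all 28363 tested probe sets did (0%), and 3 did in each comparison with SclKO (0.0106%). Forkhead differences centred near zero: the median was -0.05 for WT Scl+ minus WT Scl-, 0.01 for SclKO minus WT Scl+ and 0.00 for SclKO minus WT Scl-, against -0.04, 0.05 and 0.01 over all probe sets tested. An absolute difference under 0.5 was found for 51, 47 and 49 of the 58 in the same order (87.9%, 81.0% and 84.5%), against 85.0%, 81.7% and 91.8% of all. The median residual SD was 0.20 for forkhead probe sets and 0.21 for all. In 9 genes there was nevertheless a probe set at an unadjusted p under 0.05 in some comparison, 13 probe sets in all, and these are described below.

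In WT Scl+ against WT Scl- cells, 2 forkhead probe sets were higher (Foxc2 and Foxo1) and 3 lower (Foxf1 and 2 of Foxh1) at an unadjusted p under 0.05. These shares were 3.45% and 5.17% of the 58, where 4.44% and 4.94% of all tested probe sets were higher and lower, so both were close to the background. The lowest forkhead adjusted p, 0.439 for Foxc2, equalled the lowest over all probe sets. Without WT Scl+ replicate 1 the counts were 3 higher and 13 lower, without WT Scl+ replicate 2 they were 6 and 0, and without WT Scl- replicate 1 they were 1 and 0.

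Foxf1, whose loss in mice impairs lateral mesoderm and allantois vessels, had the largest forkhead difference in this comparison, on probe set 1434939_at. It read 9.18 and 7.97 in SclKO, 7.33 and 5.91 in WT Scl+, and 9.33 and 7.99 in WT Scl- cells. Both WT Scl+ arrays lay below all 4 others, and in every group replicate 1 was above replicate 2, by 1.21 in SclKO, 1.43 in WT Scl+ and 1.34 in WT Scl-. WT Scl+ minus WT Scl- was -2.04 (SE 0.67; 4.11-fold lower; limma unadjusted p = 0.0226, adjusted p = 0.477). The WT Scl+ minus WT Scl- difference was -2.00 between the replicate 1 arrays and -2.08 between the replicate 2 arrays. Since replicate 1 was higher in each group, leaving out 1 array shifts the group means unequally. Without WT Scl+ replicate 2 it was -1.32 (unadjusted p = 0.117), and without WT Scl- replicate 1 it was -1.37 (unadjusted p = 0.12). The difference SclKO minus WT Scl+ was 1.96 (SE 0.67; 3.89-fold; unadjusted p = 0.0264, adjusted p = 0.325). Leaving out WT Scl+ replicate 2 gave 1.24, and leaving out SclKO replicate 1 gave 1.35 (unadjusted p = 0.135 and 0.145). SclKO and WT Scl- arrays overlapped, with a difference of -0.08 (SE 0.67).
The dimmer Foxf1 probe set, 1423013_at, read 6.10 and 5.42 in SclKO, 5.33 and 5.24 in WT Scl+, and 6.10 and 5.40 in WT Scl- cells. It ordered the groups the same way with smaller differences, -0.47 for WT Scl+ minus WT Scl- and 0.48 for SclKO minus WT Scl+ (unadjusted p = 0.188 and 0.178).
In mouse, Foxf1 is a known target of hedgehog signalling. In this and the later lists each gene is read by its brightest probe set, while the shares beside them count every tested probe set. Of the 10 tested hedgehog genes, 2 were lower in WT Scl+ than in WT Scl- at an unadjusted p under 0.05, namely Bmp4 at -0.69 and Gli2 at -0.61, and 1 was higher, the inhibitor Sufu at 0.38, where 4.94% and 4.44% of all tested probe sets were lower and higher. The median was -0.14 against -0.04 for all probe sets. SclKO had 2 of them higher than WT Scl+ and 0 lower, the signal transducer Smo at 0.65 and Gli2 at 0.47, with a median of 0.33 (7.35% of all tested were higher and 5.68% lower). These counts were 0 higher and 1 lower in WT Scl+ against WT Scl-, and 0 and 0 in SclKO against WT Scl+, without WT Scl+ replicate 2. Bmp4 is a signal of ventral mesoderm and Gli2 the main activator of the pathway.

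**Figure D2:**
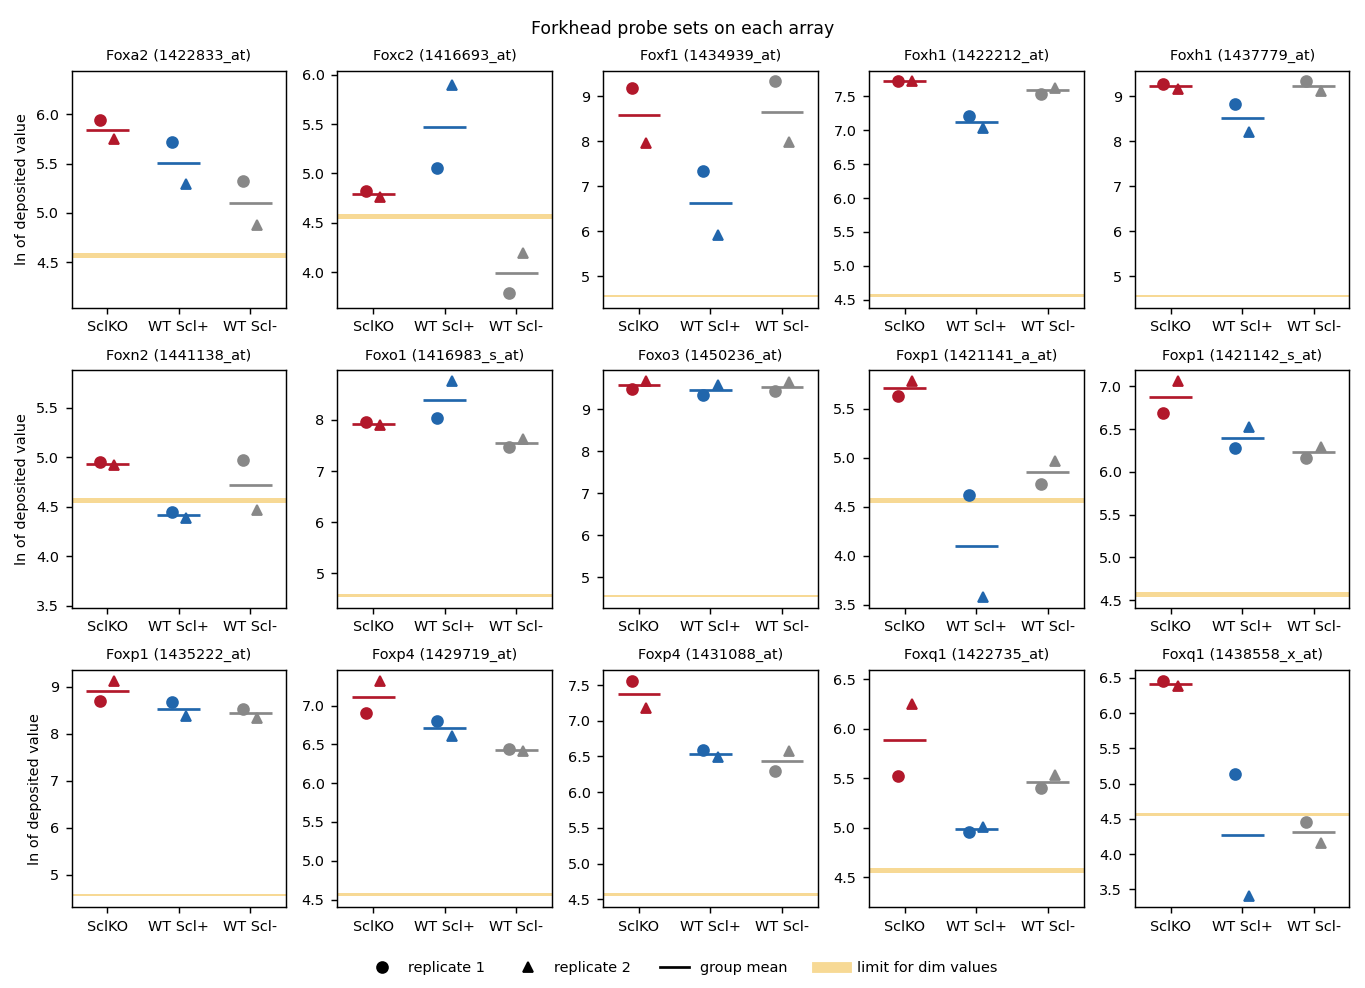
Natural log of the deposited value on each array for 15 forkhead probe sets, the 13 with an unadjusted p under 0.05 in some comparison and the brightest of Foxp1 and Foxo3, by group, with SclKO at the left, WT Scl+ in the middle and WT Scl- at the right; circles are replicate 1, triangles replicate 2, bars group means, and the yellow band the limits for dim values. Foxf1 and Foxh1 are lowest in WT Scl+, Foxc2 and Foxo1 are highest there, and Foxp4 is highest in SclKO.

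Foxh1, the Nodal pathway's forkhead partner of Smad2 and Smad3, was lower in WT Scl+ than in both other groups on all 3 of its probe sets, without overlap. They read 1 gene on the same arrays, so they are not replicates. With 2 arrays a group, non-overlap is a description only, and its share over all tested probe sets is not given here. The brightest Foxh1 probe set, 1437779_at, read 9.27 and 9.17 in SclKO, 8.82 and 8.21 in WT Scl+, and 9.33 and 9.11 in WT Scl- cells. Its difference was -0.71 for WT Scl+ minus WT Scl- (SE 0.24; 1.63-fold lower; unadjusted p = 0.0238, adjusted p = 0.481) and 0.70 for SclKO minus WT Scl+ (unadjusted p = 0.0239, adjusted p = 0.317). Without WT Scl+ replicate 2 these were -0.40 (unadjusted p = 0.0785) and 0.40 (unadjusted p = 0.079). The first was -0.59 without WT Scl- replicate 1 (unadjusted p = 0.115), and the second was 0.66 and 0.75 without SclKO replicate 1 or 2 (unadjusted p = 0.0983 and 0.0672).
The other probe sets gave the same order. Probe set 1422212_at read 7.72 and 7.72 in SclKO, 7.21 and 7.03 in WT Scl+, and 7.54 and 7.63 in WT Scl- cells, with differences of -0.47 (SE 0.16; unadjusted p = 0.0238) and 0.60 (unadjusted p = 0.00826, adjusted p = 0.235). Leaving out WT Scl+ replicate 2, WT Scl- replicate 1 or WT Scl- replicate 2 gave -0.38, -0.51 and -0.42 for the first (unadjusted p = 0.0672, 0.0679 and 0.116). The third, 1422213_s_at, read 7.96 and 7.39 in SclKO, 7.36 and 6.64 in WT Scl+, and 7.61 and 7.61 in WT Scl- cells, with differences of -0.61 and 0.68 (unadjusted p = 0.086 and 0.063).

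Genes of the Nodal pathway around Foxh1 were counted next. Of 14 tested, 6 were lower in WT Scl+ than in WT Scl- at an unadjusted p under 0.05 (4.94% of all tested probe sets were lower) and 1 was higher, with a median of -0.14. Among the lower ones were the targets Mixl1, a primitive streak homeobox gene, at -1.92, Lhx1 of the node and streak at -1.75, and Gsc of the organizer at -1.32. The others were the coreceptor Tdgf1 at -1.32, the antagonist Lefty2 at -1.20 and the type II receptor Acvr2a at -1.05. The 1 higher gene was the type I receptor Acvr1b, at 0.58. WT Scl+ replicate 2 carried much of these differences: without it 4 genes were lower and 2 higher, Mixl1 was at -1.44, Lhx1 at -0.92, Gsc at -0.69, Tdgf1 at -0.58, Lefty2 at -0.53 and Acvr2a at -0.48. Without WT Scl- replicate 1, Mixl1 was at -1.74, Gsc at -1.30, Lhx1 at -1.29, Tdgf1 at -1.17, Acvr2a at -0.92 and Lefty2 at -0.80. Acvr1b was then at 0.50, and fewer of these genes passed the threshold. The Smads that act with Foxh1 differed little, with Smad2 at -0.09, Smad3 at 0.08 and Smad4 at 0.06 (unadjusted p = 0.616, 0.679 and 0.718). Between SclKO and WT Scl+, 6 of the 14 were higher in SclKO and 1 lower, with a median of 0.75, led by Gsc at 2.66, Mixl1 at 2.61 and Lefty2 at 2.23, where 7.35% of all tested were higher and 5.68% lower. There were 5 higher and 1 lower without WT Scl+ replicate 2, with a median of 0.22, and the 3 leading genes were then at 2.04, 2.12 and 1.56. Both comparisons share the WT Scl+ arrays. The 8 markers of Flk1+ mesoderm had the same order: their mean level was 9.44 and 9.09 in SclKO, 8.63 and 7.90 in WT Scl+, and 9.40 and 9.05 in WT Scl- cells, and all 8 lay lower in WT Scl+ than in WT Scl-, 3 of them at an unadjusted p under 0.05 and 1 without WT Scl+ replicate 2. Of 8 cardiac markers, 2 were lower in WT Scl+ than in WT Scl-, Isl1 at -1.81 and Myl7 at -1.43, and 1 was higher, Mef2c at 1.84. Of all tested probe sets, 4.94% were lower and 4.44% higher. The mean level of these markers was 6.21 and 5.91 in SclKO, 5.94 and 5.69 in WT Scl+, and 6.18 and 5.96 in WT Scl- cells. Over WT Scl+, where 7.35% of all tested were higher and 5.68% lower, SclKO had 3 of them higher (Isl1 at 1.70, Myl7 at 1.18 and Tbx5 at 0.68) and 0 lower. Of these Isl1 alone was left without WT Scl+ replicate 2, at 1.42, and Mef2c in WT Scl+ against WT Scl- was then at 1.19 (unadjusted p = 0.213). The part of these markers in the Foxf1 and Foxh1 differences was not tested. In these bulk samples, fewer cells of a type and less RNA per cell cannot be told apart.

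Foxc2, a factor of paraxial mesoderm and lymphatic endothelium, was higher in WT Scl+. Probe set 1416693_at read 4.82 and 4.76 in SclKO, 5.05 and 5.89 in WT Scl+, and 3.79 and 4.19 in WT Scl- cells, so both WT Scl- arrays were dim and the groups did not overlap. WT Scl+ minus WT Scl- was 1.48 (SE 0.30, 2.79-fold, limma unadjusted p = 0.00257, adjusted p = 0.439). It was 0.88, or 1.85-fold, once dim values were raised to the limit, which is an estimate from 2 arrays a group and not a bound. SclKO minus WT Scl- was 0.80 (unadjusted p = 0.0374, adjusted p = 0.898), but 0.20 with dim values raised to the limit (unadjusted p = 0.485), and its unadjusted p was 0.173 without WT Scl- replicate 1, 0.121 without SclKO replicate 1 and 0.100 without SclKO replicate 2, all with limma. The value of SclKO minus WT Scl+ was -0.68 (unadjusted p = 0.0648). The first difference was 1.06 without WT Scl+ replicate 2, or 0.46 (1.38-fold) with dim values raised to the limit. It was 1.90 without WT Scl+ replicate 1 (adjusted p = 0.0491), which sets replicate 2 alone against WT Scl-.

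Foxo1, a FoxO factor that endothelial development requires, was higher in WT Scl+ as well. Probe set 1416983_s_at read 7.96 and 7.90 in SclKO, 8.04 and 8.76 in WT Scl+, and 7.47 and 7.62 in WT Scl- cells, without overlap between the groups of the WT line. WT Scl+ minus WT Scl- was 0.86 (SE 0.26; 1.81-fold; unadjusted p = 0.0152, adjusted p = 0.462), and without WT Scl+ replicate 2 it was 0.49 and without WT Scl- replicate 1 it was 0.78 (unadjusted p = 0.0721). SclKO minus WT Scl+ was -0.47 (unadjusted p = 0.114), and SclKO minus WT Scl- was 0.38 (unadjusted p = 0.186). The other 3 Foxo1 probe sets were at 0.80, 0.27 and 0.12 for WT Scl+ minus WT Scl- (unadjusted p = 0.0644, 0.146 and 0.519), all higher.

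A list of genes linked to endothelial FOX:ETS enhancers in mouse was counted as well. It also holds the Ets factors Etv2, Fli1, Erg, Ets1 and Ets2, and no FOX:ETS site was checked at any of its genes. Of 16 tested, 9 were higher in WT Scl+ than in the WT Scl- arrays at an unadjusted p under 0.05 and 0 lower, with a median of 1.42, where 4.44% of all tested probe sets were higher and 4.94% lower. Tek (3.25), Fli1 (2.61) and Erg (2.57) led. WT Scl- replicate 1 was low for them: without it the median was 0.68, 6 were higher, and Tek, Fli1 and Erg were at 1.10, 1.29 and 1.22. The count was 3 without WT Scl+ replicate 2, with a median of 1.10. SclKO cells had 8 of them lower and 2 higher than WT Scl+ cells, with a median of -1.63 (7.35% of all tested were higher and 5.68% lower). They were 5 lower and 1 higher without WT Scl+ replicate 2, with a median of -1.13. The list includes Tal1, whose reporter set the gate, and Kdr. Endothelial and blood markers were likewise highest in WT Scl+, but Tek, Tie1 and Cdh5 stand in both the FOX:ETS list and the endothelial list. The mean level of 8 endothelial markers was 5.14 and 5.91 in SclKO, 6.87 and 7.41 in WT Scl+, and 4.70 and 6.37 in WT Scl- cells. The SclKO arrays thus lay between the WT Scl- arrays. Emcn was dim on all arrays, and 6 of the 7 tested were higher in WT Scl+ than in the WT Scl- arrays at an unadjusted p under 0.05. That count was 1 without WT Scl+ replicate 2 or WT Scl- replicate 1. The 10 blood markers averaged 4.83 and 5.03 in SclKO, 7.08 and 6.66 in WT Scl+, and 5.12 and 5.87 in WT Scl-, with 9 of 9 tested higher at the same threshold and Ptprc dim on all. That count was 6 without either WT Scl+ array, where 1 marker was no longer tested, and 5 without WT Scl- replicate 1. Their part in the Foxc2 and Foxo1 differences was not tested.
The paraxial and Notch genes that Foxc factors act with went the other way. Of 9 tested, 5 were lower in WT Scl+ than in WT Scl- at an unadjusted p under 0.05, with Mesp1 at -1.47, Mesp2 at -1.46 and Hey1 at -0.83, and 1 was higher, Hey2 at 0.82 (4.94% and 4.44% of all tested were lower and higher). These were 3 lower and 0 higher without WT Scl+ replicate 2. With SclKO over WT Scl+, 5 were higher and 1 lower, with Mesp2 at 1.79, Mesp1 at 1.45 and Hey2 at -1.85, and the median was 0.75, where 7.35% of all tested were higher and 5.68% lower. There were 3 higher and 1 lower without WT Scl+ replicate 2. Of the FoxO regulators, 0 of 9 passed an unadjusted p under 0.05 in either direction in WT Scl+ against WT Scl-, and Sgk1 alone did so in SclKO against WT Scl+, at 1.09 (0.61 without WT Scl+ replicate 2, unadjusted p = 0.0536). Among 14 tested FoxO targets, Trib1 at -0.70 and Cited2 at 0.45 for WT Scl+ minus WT Scl- were the 2 at an unadjusted p under 0.05. Against WT Scl+, SclKO had 4 targets lower and 1 higher, with Txnip at -1.25, Ccng2 at -0.80 and Trib1 at 1.27, against 5.68% of all tested lower and 7.35% higher. With so few genes, the counts of 1 or 2 are little above such a background. The median of the FoxO targets for SclKO minus WT Scl+ was -0.17. It lay between -0.31 and -0.14 when any 1 array of these groups was left out. The counts of targets at the threshold then moved both up and down, so they depend on single arrays.

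When SclKO was set against WT Scl+ cells, 8 forkhead probe sets were higher at an unadjusted p under 0.05 and 0 lower. That is 13.8% of 58, against 7.35% of all tested probe sets higher and 5.68% lower, and the 8 fall in 6 genes, Foxf1, Foxh1, Foxn2, Foxp1, Foxp4 and Foxq1. The lowest adjusted p was 0.183, for Foxp1, where the lowest over all probe sets was 0.00262. The counts were 6 higher and 2 lower without WT Scl+ replicate 2, and without WT Scl+ replicate 1, 13 were higher and 2 lower.
In SclKO against WT Scl- cells, 7 were higher and 0 lower. That is 12.1%, against 2.70% of all higher and 2.77% lower, with a lowest adjusted p of 0.820, for Foxp4. These 7 are of Foxa2, Foxc2, Foxp1, Foxp4 and Foxq1. The count was 3 without SclKO replicate 2, and 4 without WT Scl- replicate 1 or 2, of which 1 was lower without replicate 1. Without either WT Scl+ array it was 12, with 9 higher and 3 lower. Both comparisons share the SclKO arrays.

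**Figure D3:**
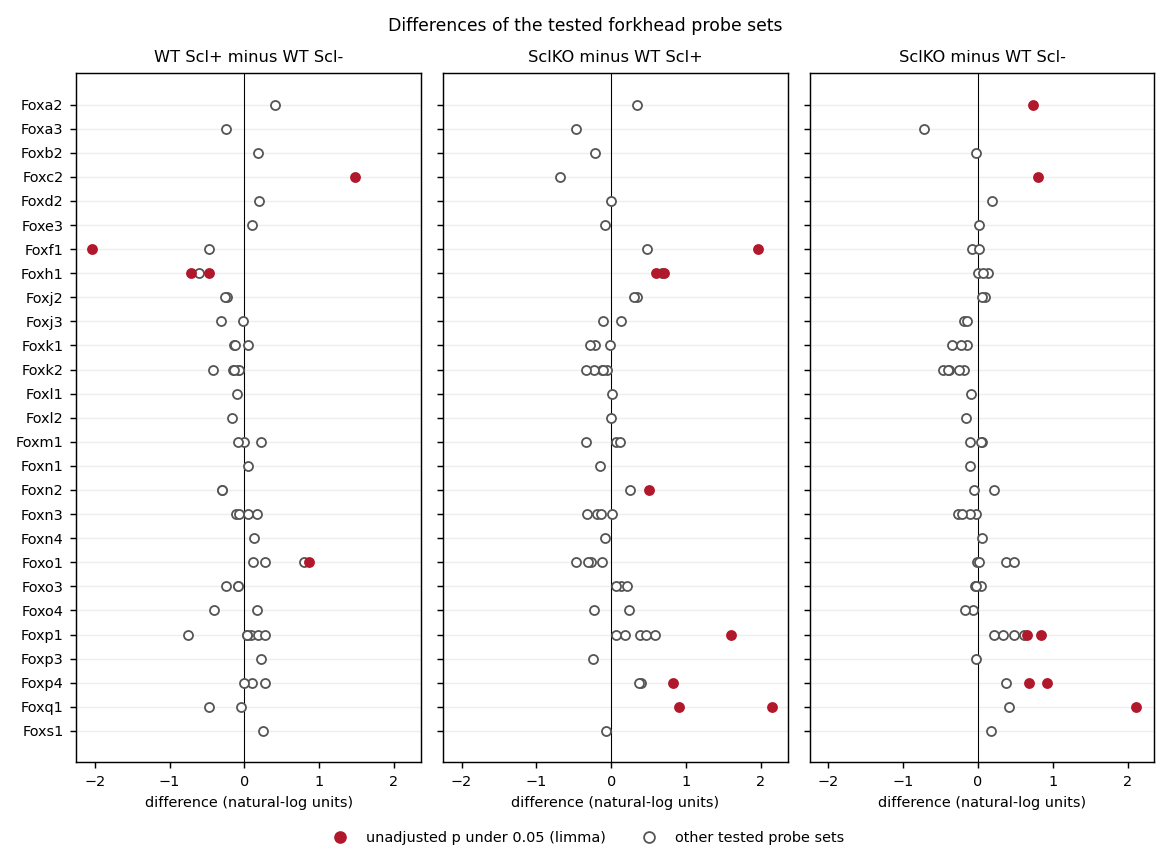
Difference in log units of each forkhead probe set tested, in 3 panels, WT Scl+ minus WT Scl-, SclKO minus WT Scl+ and SclKO minus WT Scl-; filled points have an unadjusted p under 0.05. Most points lie within 0.5 of zero, and Foxq1, Foxf1 and Foxp1 reach the largest values.

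Foxp4, a FoxP factor of lung and heart development, was higher in SclKO than in both WT groups. Probe set 1431088_at read 7.56 and 7.18 in SclKO, 6.59 and 6.49 in WT Scl+, and 6.30 and 6.58 in WT Scl- cells. Both SclKO arrays lay above all 4 others. SclKO minus WT Scl+ was 0.83 (SE 0.20; 1.78-fold; unadjusted p = 0.00588, adjusted p = 0.212), and SclKO minus WT Scl- was 0.93 (SE 0.20; 1.91-fold; unadjusted p = 0.00338, adjusted p = 0.820). Leaving out 1 array at a time gave 0.64 to 1.02 and 0.74 to 1.12. WT Scl+ minus WT Scl- was 0.10 (unadjusted p = 0.632).
The other 2 Foxp4 probe sets, which read the same gene on the same arrays, also had a higher mean in SclKO than in both WT groups. Probe set 1429719_at read 6.90 and 7.32 in SclKO, 6.80 and 6.61 in WT Scl+, and 6.44 and 6.41 in WT Scl- cells, with differences of 0.40 (unadjusted p = 0.0854) and 0.68 (unadjusted p = 0.0128). The second was 0.70, 0.67 and 0.47 without WT Scl- replicate 1, WT Scl- replicate 2 or SclKO replicate 2 (unadjusted p = 0.0501, 0.0571 and 0.0842). Probe set 1431437_at gave 0.37 and 0.37 (unadjusted p = 0.115 and 0.113).

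Foxp1, the FoxP factor of heart and endothelium, had a higher mean in SclKO on all 6 tested probe sets in both comparisons. The brightest, 1435222_at, read 8.71 and 9.13 in SclKO, 8.67 and 8.39 in WT Scl+, and 8.54 and 8.33 in WT Scl- cells, with SclKO above both other groups. Its differences were 0.39 (SE 0.21; unadjusted p = 0.112) and 0.48 (SE 0.21; unadjusted p = 0.0623).
The dimmest tested, 1421141_a_at, a probe set for alternative transcripts, read 5.63 and 5.78 in SclKO, 4.62 and 3.58 in WT Scl+, and 4.73 and 4.97 in WT Scl- cells, with WT Scl+ replicate 2 dim. The difference SclKO minus WT Scl+ was 1.60 (SE 0.34; unadjusted p = 0.00306, adjusted p = 0.183), or 1.11 with the dim value at the limit, and 1.08 without WT Scl+ replicate 2. SclKO minus WT Scl- was 0.85 (unadjusted p = 0.0446, adjusted p = 0.898), and its unadjusted p lay between 0.0803 and 0.159 when any 1 array of those groups was left out. Probe set 1421142_s_at read 6.69 and 7.06 in SclKO, 6.28 and 6.52 in WT Scl+, and 6.16 and 6.29 in WT Scl- cells. It was higher in SclKO than in WT Scl- by 0.65 (unadjusted p = 0.0161), and by 0.58 without WT Scl- replicate 1 and 0.46 without SclKO replicate 2 (unadjusted p = 0.0817 and 0.104). The 4 tested probe sets other than the brightest and the dimmest were at 0.07 to 0.59 over WT Scl+ and 0.22 to 0.65 over WT Scl-. Not every array pair had SclKO higher. Between the replicate 1 arrays, SclKO minus WT Scl+ was -0.55 on 1435221_at and -0.14 on 1421140_a_at, against 0.69 and 0.52 between the replicate 2 arrays. On 1421140_a_at, SclKO minus WT Scl- was -0.13 and 0.57 in the same order.

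Foxq1, a factor of hair and epithelia, was higher in SclKO on both probe sets. Probe set 1422735_at read 5.52 and 6.25 in SclKO, 4.96 and 5.01 in WT Scl+, and 5.40 and 5.53 in WT Scl- cells. SclKO lay above WT Scl+ by 0.90 (SE 0.26; unadjusted p = 0.0121, adjusted p = 0.263), by 0.54 without SclKO replicate 2, and it overlapped WT Scl-, at 0.42 (unadjusted p = 0.149).
Probe set 1438558_x_at, whose probes may also bind related transcripts, read 6.46 and 6.38 in SclKO, 5.14 and 3.40 in WT Scl+, and 4.46 and 4.16 in WT Scl- cells. The SclKO arrays lay above all others, and both WT Scl- arrays and WT Scl+ replicate 2 were dim. SclKO minus WT Scl+ was 2.15 (SE 0.53; unadjusted p = 0.00616, adjusted p = 0.214), from 1.28 to 3.02 over the left-out arrays, and 1.56 with the dim value at the limit. SclKO minus WT Scl- was 2.11 (limma unadjusted p = 0.00673, adjusted p = 0.870), and 1.84, or 3.57-fold, once dim values were raised to the limit.
Without WT Scl+ replicate 1, which leaves that group the single array that stood apart, with its spread taken from the other groups, 3 probe sets were under an adjusted p of 0.05 in SclKO against WT Scl+: 1438558_x_at of Foxq1 at 3.02 (adjusted p = 0.0237), 1421141_a_at of Foxp1 at 2.12 (adjusted p = 0.0314) and 1455242_at of Foxp1 at 1.03 (adjusted p = 0.0484). Each of these values rests on 1 WT Scl+ array.

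Foxa2 of node and endoderm read 5.94 and 5.75 in SclKO, 5.72 and 5.29 in WT Scl+, and 5.32 and 4.88 in WT Scl- cells on probe set 1422833_at. SclKO was above WT Scl- without overlap, by 0.74 (SE 0.24; unadjusted p = 0.0191, adjusted p = 0.886), and by 0.52 without WT Scl- replicate 2 and 0.65 without SclKO replicate 1 (unadjusted p = 0.117 and 0.0952). Of 10 tested endoderm and node genes, 2 were higher in SclKO than in WT Scl- and 0 lower, with a median of 0.51, where 2.70% of all tested were higher and 2.77% lower. That count was 0 or 1 when any array of these groups was left out, and 6 without either WT Scl+ array. The 2 were Apoa1 at 0.71 and Gata6 at 0.52, and the largest difference was that of Sox2, at 1.90 (unadjusted p = 0.0844). The list's measured genes averaged 6.97 and 6.82 in SclKO, 7.05 and 6.18 in WT Scl+, and 6.36 and 6.27 in WT Scl- cells. WT Scl+ replicate 1 thus lay above both SclKO arrays, and WT Scl+ replicate 2 below both WT Scl- arrays. Sox2 likewise read 5.83 and 2.86 in WT Scl+, against 5.78 and 5.08 in SclKO. A part of these genes in the Foxa2 difference was not tested. Neurectoderm markers were at 5.45 and 5.54 in SclKO, 5.27 and 5.03 in WT Scl+, and 5.32 and 5.25 in WT Scl- cells. In SclKO against WT Scl+, 7.35% of all tested probe sets were higher and 5.68% lower at an unadjusted p under 0.05. At that threshold 2 of 5 tested markers were higher (Otx2 at 2.43 and Zic2 at 1.42). Both were smaller without WT Scl+ replicate 2, at 1.13 and 0.84. The list was not uniform: Nes was at -0.46 and Six3 at -0.22, and for WT Scl+ minus WT Scl- Nes was at 0.80 (unadjusted p = 0.0118).
Foxn2 had 1 of 2 probe sets at an unadjusted p under 0.05. This one, 1441138_at, read 4.95 and 4.92 in SclKO, 4.45 and 4.39 in WT Scl+, and 4.97 and 4.47 in WT Scl- cells, so both WT Scl+ arrays were dim. SclKO minus WT Scl+ was 0.51 (unadjusted p = 0.0461), or 0.38 with dim values raised to the limit (unadjusted p = 0.0719), and its unadjusted p lay between 0.0791 and 0.143 when any 1 array of those groups was left out. The brighter 1454831_at was at 0.25 (unadjusted p = 0.264).

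The other 18 tested genes, with 34 probe sets, had no probe set at an unadjusted p under 0.05. Their 102 differences ran from -0.72, of Foxa3 in SclKO against WT Scl-, to 0.35, and 1 was over 0.5 in size; SEs lay between 0.15 and 0.40. Bright members were among them. Foxk1, a factor of myogenic progenitors and metabolism, read 10.59 and 10.35 in SclKO, 10.73 and 10.22 in WT Scl+, and 10.67 and 10.57 in WT Scl- cells, and its 9 differences lay between -0.34 and 0.05. Foxo3, a FoxO factor of oxidative stress and quiescence, read 9.49 and 9.67 in SclKO, 9.34 and 9.57 in WT Scl+, and 9.43 and 9.66 in WT Scl-, with differences between -0.25 and 0.21. Foxk2 (5 probe sets) lay between -0.47 and -0.06, Foxn3 (4) between -0.32 and 0.17, and Foxj3 (2) between -0.31 and 0.13. The absence of a call does not show equal levels.
Foxm1, which drives mitotic genes, read 7.42 and 7.41 in SclKO, 7.98 and 7.52 in WT Scl+, and 7.50 and 7.55 in WT Scl-, and its 3 tested probe sets ran from -0.33 to 0.22. Its list of target genes had 4 of 13 higher in WT Scl+ than in the WT Scl- arrays and 0 lower (4.44% and 4.94% of all tested), with a median of 0.35, led by Plk1 (0.59), Aurkb (0.50) and Cdc25b (0.50, unadjusted p = 0.0723). The count was 1 without WT Scl- replicate 1. Of the 13, 4 were lower in SclKO than in WT Scl+ (5.68% of all tested were), with a median of -0.28. Of the pluripotency genes linked to Foxd3, which was dim throughout, 2 of 9 were higher in SclKO than in WT Scl+ and 1 lower, led by Tdgf1 (1.54) and Pou5f1 (1.52), where 7.35% of all tested were higher and 5.68% lower. Both differences shrank without WT Scl+ replicate 2, to 0.79 and 0.78, with 2 of the list higher and 2 lower.

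Set against WT Scl-, SclKO had 14 of the 132 distinct list genes tested at an unadjusted p under 0.05 (10.6%), against 5.47% of all tested probe sets. The FOX:ETS genes had 0 higher and 1 lower (Tal1), the Nodal genes 2 higher and 0 lower (Gsc at 1.35 and Nodal at 0.83), and the hedgehog genes 1 higher and 0 lower (Gli1 at 0.89). Paraxial and Notch genes had 0 higher and 1 lower (Hey2 at -1.03), FoxO targets 1 higher and 2 lower, FoxO regulators 0 in either direction, Foxm1 targets 0 higher and 1 lower, and pluripotency genes 1 in each direction. Blood markers had 0 higher and 1 lower (Myb at -1.89), and the endothelial, cardiac, neurectoderm and Flk1+ mesoderm markers 0 in either direction. With limma, 0 members of the 14 lists passed an adjusted p of 0.05 in any of the 3 comparisons. In WT Scl+ against WT Scl-, 38.6% of the 132 list genes had an unadjusted p under 0.05, against 9.38% of all tested probe sets. In SclKO against WT Scl+ these shares were 44.7% and 13.0%. The lists include Tal1, the targeted gene, and were chosen with earlier results of these data known, so the shares are a description only.

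Forkhead genes that neighbour each other were set side by side. On chromosome 8 the RefSeq order is Fendrr, Foxf1, Mthfsd, Foxc2 and Foxl1. Between WT Scl+ and WT Scl-, Foxf1 was at -2.04 while Foxc2 was at 1.48, and Mthfsd between them was at 0.28 (unadjusted p = 0.25). Foxl1 was at -0.10, with 4.91 and 4.90 in SclKO, 4.86 and 4.93 in WT Scl+, and 4.94 and 5.06 in WT Scl-, and Fendrr was dim on all arrays. On chromosome 13, Foxq1 lies with Foxf2 and Foxc1, both too dim to test, so the SclKO difference of Foxq1 could not be compared with theirs.

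Replicate 1 and replicate 2 differed on Foxf1 probe set 1434939_at by more than 1 log unit in all 3 groups. On the dimmer Foxf1 probe set, 1423013_at, they differed by less than 1 log unit in each group. Over the 58 tested forkhead probe sets, replicate 1 minus replicate 2 had medians of 0.01 in SclKO, 0.11 in WT Scl+ and -0.04 in WT Scl-. In WT Scl+, 4 of the 58 differed by more than 1 (6.83% of all tested probe sets did). In SclKO and WT Scl- only 1434939_at of Foxf1 did (1.31% and 1.90% of all). The lowest values were -0.73 in SclKO (Foxq1), -0.87 in WT Scl+ (Foxo1) and -0.63 in WT Scl- (Foxk2).

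**Figure D4:**
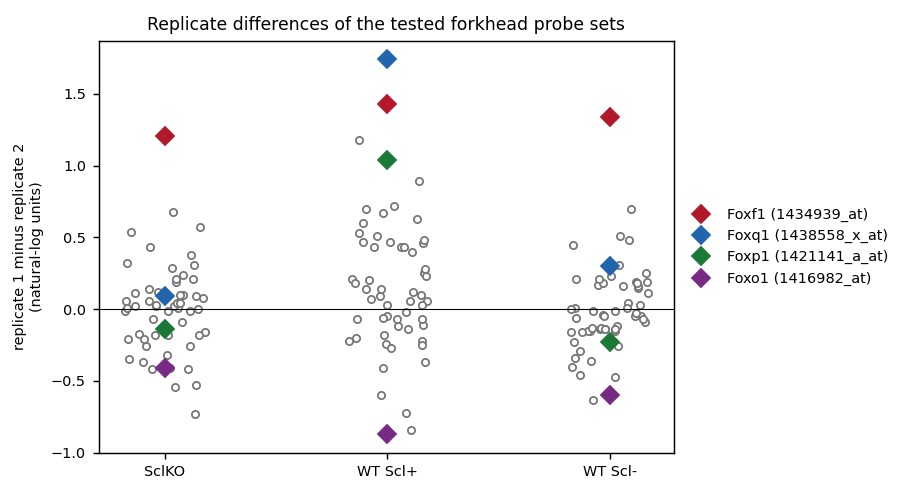
Replicate 1 minus replicate 2 in log units for each of the 58 tested forkhead probe sets, by group, SclKO, WT Scl+ and WT Scl-; diamonds mark the probe set of Foxf1, Foxq1, Foxp1 and Foxo1 with the widest replicate difference. The marked Foxf1 probe set, 1434939_at, is above 1 in each group, while most points lie near zero.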

How the data were processed

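RNA of 6 samples in 3 groups of 2 was measured on Affymetrix mouse arrays. RMA, affy and limma are the tools named, per the submitters' processing notes, without versions, and the authors' deposited value of a probe set has no stated unit and is treated as a score. The deposited scores are not on a log scale, so the natural log was taken; between 1040 and 1153 probe sets per array exceeded 65535, the ceiling of a 16-bit scanner. Groups and replicate numbers come from the sample titles. Gene names come from the platform's annotation, and chromosomes and promoter windows from RefSeq GRCm38.p6.

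With limma 3.58.1 (eBayes, two-sided) in R 4.3.3, all 6 arrays entered 1 model holding 1 mean for each group, with 3 residual and 3.13 prior degrees of freedom. Probe sets above the array's 40th percentile on at least 2 arrays were tested, 28363 in all, over which the Benjamini-Hochberg adjustment ran. Calls needed an adjusted p under 0.05. Arrays have no read depth, and their number limits the precision. The brightest probe set was given with all arrays for each forkhead gene that differed by at least 1 log unit or had an unadjusted p under 0.05, and for 15 genes named in the rule where tested; other probe sets of these genes with array values were chosen after their values were seen. Each of the 14 gene lists was given as counts at an unadjusted p under 0.05, with up to 3 of its largest differences, and other members named were chosen after their values were seen. A list gene was read by its brightest probe set over the 6 arrays. The background shares count all tested probe sets, so the units of the 2 differ. Members and lists were chosen with earlier results of these data known. The lists are not independent: Tek, Tie1, Cdh5, Mef2c, Kdr, Etv2, Mesp1, Bmp4 and Tdgf1 each stand in more than 1 list. Leaving out arrays for the lists, and for dim values raised to the limit, was chosen after the data were seen. Alternatives were the filter, floor, median centring, an intensity trend, 1 probe set per gene, 2 groups only, a replicate block and leaving out each array.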

Additional observations from a re-analysis of the deposited data

How the results depend on the processing

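With 2 arrays a group, 1 array can decide a value. No forkhead probe set was called at an adjusted p under 0.05 under any alternative other than leaving out WT Scl+ replicate 1, which gave 1 call in WT Scl+ against WT Scl- and 3 in SclKO against WT Scl+; over the left-out arrays the calls ran from 0 to 1, from 0 to 3 and were 0 in SclKO against WT Scl-. Counts at an unadjusted p under 0.05 moved more. In WT Scl+ against WT Scl- the count of 5 became 10 with no filter and ran from 1 to 16 over the left-out arrays. In SclKO against WT Scl+ the count of 8 became 4 with 1 probe set per gene, and ran from 6 to 15 over the left-out arrays. In SclKO against WT Scl- the count of 7 became 3 with 1 probe set per gene and 12 with only the 2 groups compared, and ran from 3 to 12. Of 288 recomputed values of the 20 differences at an unadjusted p under 0.05, 251 kept direction and side of the threshold, 37 lost the threshold and 0 changed sign. The cause was not tested. Most of the 37 losses came from leaving out 1 array, although some of the left-out arrays lie outside the comparison. Each other alternative lost at most 2 values, so the pooled count understates how much single arrays matter.

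The replicate numbers are given by the titles, but nothing says they mark a shared culture. The replicate deviations of the groups correlated at 0.21 to 0.24 over 28363 probe sets, each group having 1 independent deviation. With the replicate block, 8 forkhead probe sets were at an unadjusted p under 0.05 in WT Scl+ against WT Scl-, 11 in SclKO against WT Scl+ and 7 in SclKO against WT Scl-, and 0 passed the adjusted p in each. The Foxf1 differences kept their size of -2.04 and 1.96 under the block, with unadjusted p = 3.19e-05 and 3.92e-05 and adjusted p = 0.173 and 0.0792.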

Other observations

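Of all 28363 tested probe sets, 7 (0.0247%) were above 1 log unit higher in replicate 1 than in replicate 2 in all 3 groups, and 16 (0.0564%) were so in replicate 2; these were picked after their values were seen. Probe set 1434939_at of Foxf1 was the 1 forkhead probe set among the 7, and the dimmer Foxf1 probe set was not among them. The 7 also held Hand1, a lateral mesoderm factor, at 1.08 in SclKO, 1.21 in WT Scl+ and 1.09 in WT Scl-. The 16 held endothelial genes, among them Sox18 at -1.60 in SclKO, -1.59 in WT Scl+ and -2.54 in WT Scl-, and Flt4 at -1.46, -1.06 and -1.74 in the same order. No explanation was tested.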
